A study of Mus musculus with 4 samples.

Results

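The interferon response of blood progenitors was read from 48 listed mouse genes that interferons are known to induce, among them transcription factors, sensors of viral nucleic acid, antiviral effectors and interferon-inducible GTPases. The genes were taken by symbol from the deposited UMI matrix (unique molecular identifiers, 1 per captured transcript), and 46 of the 48 were among its 13978 genes. Ifit3b and Mx1 had no row and were not analysed here. Summed over all cells, 34 of the 46 genes stood higher in the marrow of leukemic mice and 12 lower (50.3% and 49.7% of all genes did), whereas with both groups weighted to the same mix of progenitor classes 21 were higher and 25 lower (50% of all genes each way). Within classes of like cells the genes split: Lgals3bp stood higher in several classes, and Ifi209, Ifi27 and Irf7 lower. The summed GTPases stood higher in some classes and lower in others. Most of the genes were lower in classes of the erythroid and megakaryocyte branches. The part of genes with 1 direction over all classes was no larger than among all genes.

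The cells were KIT+ bone marrow cells of wild-type CD45.1 hosts that lacked lineage markers and CD45.2 (KIT+Lin-CD45.2-CD45.1+). The B-ALL environment group, called leukemic marrow here, had received 150000 primary B-cell acute lymphoblastic leukemia cells by tail vein, taken from a lymph node of 1 leukemic Cd45.2+/+Ebf1+/-Pax5+/- mouse (LN768). The PBS control group had received PBS, and both were sorted at 3 weeks. The labels name 2 samples per group and give no age or sex. The deposited cells carry a group prefix but no replicate, so each group was 1 sample. The spread between mice is therefore not known, no test was possible, and every interval below is a 95% interval for counting error only. All cells compared were sorted host cells, so "leukemic marrow cells" below are host progenitors from leukemic mice and not leukemia cells. Because the leukemia came from 1 donor mouse, the B-ALL environment is that of a single primary tumor.

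Type I interferons bind the receptor IFNAR on the cell surface, and its kinases JAK1 and TYK2 activate the complex ISGF3, which includes STAT2 and IRF9 and binds the interferon-stimulated response element (ISRE). Interferon gamma acts through the gamma-activated site (GAS) and strongly induces the GTPases. In marrow, stem cells are known to hold a basal interferon program, and interferon can drive them from rest into division.

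Each group held 5882 cells. The control group had 68391214 UMIs (median 10189 per cell) and leukemic marrow 76059014 (median 10458). In leukemic marrow, 190 cells lay below the lowest control total of 3070, and 18 barcodes occurred in both groups. Mitochondrial genes took 3.56% of UMIs in the control and 5.14% in leukemic marrow. Kit had a UMI in 92.9% of control cells and 79.1% of leukemic marrow cells. Among markers of other cells, 3 of T and NK cells summed to 322 and 252 CPM (UMIs scaled to a common total), control first, and 4 of plasmacytoid dendritic cells to 180 and 221. Those of B cells (3 genes, 42.5 and 51.5 CPM), conventional dendritic cells (5, 51.6 and 65.7), macrophages (7, 19.4 and 11.8) and stromal and endothelial cells (3, 7.84 and 16.6) summed to less, and the part of all these lists in the results was not tested.

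Over all cells, 10 of the 46 genes stood more than 1.5-fold higher in leukemic marrow, a size reached by 12.6% of all genes. Cmpk2 and Ifi209 stood more than 1.5-fold lower, against 8.08% of all genes. The median log2 fold (B-ALL environment over PBS control) was 0.20 over the 46 genes and 0.0018 over all genes. All 8 GTPases were higher, with a median log2 fold of 0.51, as were the 4 IFIT genes, at 0.57. Of the 4 transcription factors, 2 were higher and 2 lower, and of the 5 other antiviral effectors 2 were higher and 3 lower.

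**Figure D1:**
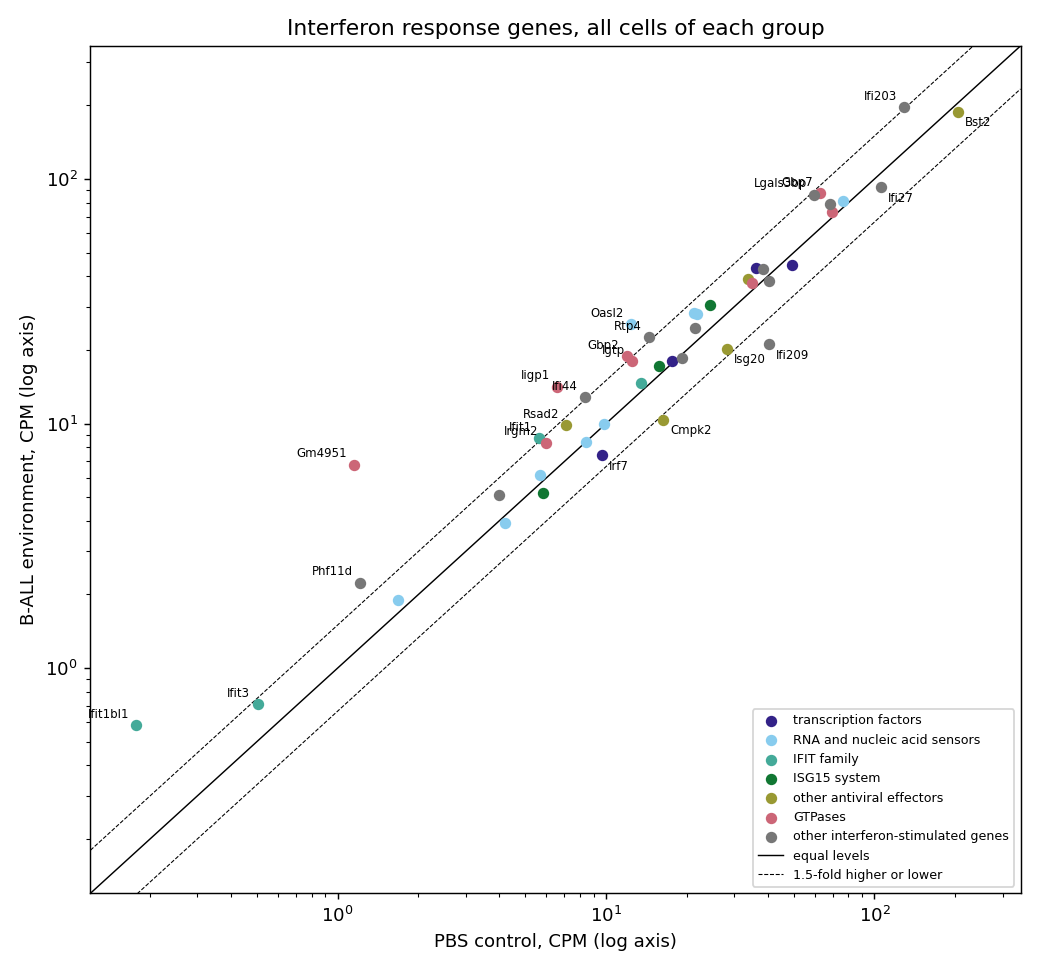
Level of each of the 46 genes over all cells, in CPM on log axes, with the PBS control on the x axis and the B-ALL environment on the y axis. Each point is a gene coloured by role, the solid line marks equal levels, and the dashed lines mark a 1.5-fold difference; Gm4951, Iigp1 and Oasl2 lie above the dashed line and Ifi209 and Cmpk2 below it. Names are given for genes far from equal and for Bst2, Ifi27 and Irf7.

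The immunity-related GTPases and guanylate-binding proteins coat and disrupt the vacuoles of intracellular microbes. Iigp1 stood at 6.56 CPM in the control and 14.2 in leukemic marrow, a log2 fold of 1.11 (0.95 to 1.27). Its neighbour Gm4951, a predicted gene of the same kind, stood at 1.16 and 6.79 CPM, a log2 fold of 2.56 (2.21 to 2.92), the highest of the 46. Gbp2 stood at 11.9 and 18.9 CPM, and Gbp7 at 62.9 and 87.6. For these 4 genes the intervals of the log2 fold lay above 0. Igtp had a log2 fold of 0.52 and Irgm2 of 0.49, while Ifi47 and Irgm1 were nearly level, at 0.08 and 0.10. Exons of Igtp and Irgm2 overlap on the same strand, and so do those of Gbp7 and Gm43802, so counting could have split their reads.

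Among the transcription factors, Irf1, which also answers to interferon gamma, stood at 36.2 CPM in the control and 43.4 in leukemic marrow. Irf7, which amplifies the response, stood at 9.65 and 7.42 CPM, a log2 fold of -0.38 (-0.54 to -0.22). Of the ISGF3 subunits read here, Irf9 was slightly lower, at -0.16 (-0.23 to -0.09), and Stat2 lay close to level, at 0.04 (-0.07 to 0.16).

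Among the sensors, Oasl2 (chr5:114896936-114912234, mm10), a relative of the oligoadenylate synthetases, stood at 12.4 CPM in the control and 25.5 in leukemic marrow, a log2 fold of 1.04 (0.92 to 1.16). The RNA helicases Ddx58 (RIG-I) and Ifih1 (MDA5) had log2 folds of 0.41 and 0.36. The other 6 sensors, Dhx58, Zbp1, Eif2ak2, Oas1a, Oas2 and Oas3, lay between -0.09 and 0.18. Oasl2 was thus the one sensor past 1.5-fold.

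The IFIT proteins bind foreign RNA. Ifit1 stood at 5.63 CPM in the control and 8.72 in leukemic marrow, a log2 fold of 0.63. Ifit1bl1 had 12 and 45 UMIs in all, Ifit3 had 34 and 55, and Ifit2 had a log2 fold of 0.11. Ifit3 has a near-identical copy, Ifit3b, so its few reads are uncertain. In the ISG15 system, Isg15, the ubiquitin-like modifier, had a log2 fold of 0.12, the ligase Herc6 0.33, and Usp18, which removes ISG15 and damps the receptor, -0.16.

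Other effectors pointed both ways. Rsad2 (viperin), which makes a chain-terminating nucleotide, stood at 7.12 CPM in the control and 9.87 in leukemic marrow. Cmpk2, a mitochondrial nucleotide kinase whose gene lies beside Rsad2 on chromosome 12, stood at 16.3 and 10.4 CPM, a log2 fold of -0.65 (-0.78 to -0.52). These 2 neighbours were thus on opposite sides. The exonuclease gene Isg20 stood at 28.2 and 20.2 CPM, Bst2 (tetherin) at 204 and 188, and Samd9l at 33.9 and 39.0.

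Of the 13 remaining genes, 9 were higher. Ifi203, a DNA-binding protein of the PYHIN family, stood at 129 CPM in the control and 196 in leukemic marrow, a log2 fold of 0.60 (0.57 to 0.64). Its relative Ifi209 (chr1:173630917-173647928) went the other way, at 40.5 and 21.1 CPM, a log2 fold of -0.94 (-1.03 to -0.85). Lgals3bp (chr11:118392751-118402092, mm10), a secreted galectin-binding glycoprotein, stood at 59.7 and 86.3 CPM. The PYHIN family thus held 1 gene well above and 1 well below the control. Rtp4 and Ifi44 had log2 folds of 0.64 and 0.63, and Phf11d, with 82 and 172 UMIs, 0.88. Phf11b, Trim30a, Xaf1 and Parp14 lay between 0.15 and 0.36, and Ifi27l2a, Ifi35 and Ifi27 between -0.19 and -0.05. Exons of Ifi203 overlap those of Mndal, and exons of Rtp4 those of Gm45338, on the same strand.

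The promoters of these genes show the elements that the pathway acts on. Of 36 genes with a promoter entry in RefSeq (GRCm38.p6), 17 (47.2%) held the ISRE letters (GAAA, 2 bases of any kind, GAAA) on either strand in the 250 bases before a start, against 3.19% of 10472 genes. The GAS letters TTCNNNGAA, which read alike on both strands, stood in 9 of the 36 (25.0%), against 7.20% of all. The 4 sequences below are 250 bases upstream of the start, 5′ to 3′ on the gene's strand, with matches in capitals. Isg15 shows overlapping ISRE copies, Igtp and Gbp7 carry both elements, and Ifi209, the gene with the lowest fold, has no match. Oasl2, Ifi44 and Lgals3bp, which were higher over all cells, have no match either. A match describes letters, not binding.
Isg15, chr4:156200819-156201068, minus strand: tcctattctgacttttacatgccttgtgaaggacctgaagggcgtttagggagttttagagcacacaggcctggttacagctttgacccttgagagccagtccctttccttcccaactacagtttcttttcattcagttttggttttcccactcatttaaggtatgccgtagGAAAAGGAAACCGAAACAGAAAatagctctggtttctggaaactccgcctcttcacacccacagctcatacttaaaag
Igtp, chr11:58199306-58199555, plus strand: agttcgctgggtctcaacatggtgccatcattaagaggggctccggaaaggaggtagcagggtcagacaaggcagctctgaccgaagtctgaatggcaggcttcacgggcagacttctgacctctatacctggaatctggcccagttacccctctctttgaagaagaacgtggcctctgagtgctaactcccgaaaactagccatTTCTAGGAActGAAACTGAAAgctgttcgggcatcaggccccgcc
Gbp7, chr3:142530086-142530335, plus strand: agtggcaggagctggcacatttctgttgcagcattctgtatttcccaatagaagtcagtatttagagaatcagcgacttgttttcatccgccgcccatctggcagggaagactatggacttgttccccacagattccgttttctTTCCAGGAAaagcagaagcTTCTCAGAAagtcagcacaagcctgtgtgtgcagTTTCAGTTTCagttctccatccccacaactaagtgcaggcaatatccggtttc
Ifi209, chr1:173630609-173630858, plus strand: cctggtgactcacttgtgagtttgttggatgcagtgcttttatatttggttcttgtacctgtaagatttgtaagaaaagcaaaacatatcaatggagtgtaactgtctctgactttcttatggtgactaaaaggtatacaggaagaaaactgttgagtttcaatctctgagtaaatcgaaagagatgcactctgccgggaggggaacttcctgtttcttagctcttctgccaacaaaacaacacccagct

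To separate the levels from the mix of cells, each cell was placed in a class by UMIs of lineage markers that are not among the 48 genes. Classes that carried their own markers among their leading genes are named for them with "-like". A class led by Adgrl4 held 2 markers of hematopoietic stem cells (HSCs) and 1 of its own list among its 10 leading genes, and is called Adgrl4-led. The classes are ranges of a marker score, not fixed types: 103 HSC-like cells and 909 uncalled cells lay near a limit. HSC-like cells were 134 control cells (2.28%) and 1226 leukemic marrow cells (20.8%), a difference that the markers themselves could set, since the 12 HSC markers summed to 333 and 664 CPM. With scores scaled within each group the class held 374 and 827 cells, and with clusters of the deposited map 476 and 1347, and both alternatives are given where they matter. Of the latter, 146 and 222 cells came from a cluster led by Igkc and globin genes, with no HSC marker among its 10 leading genes, and values without it are given beside those that it moved. The map is not independent of the genes read here, as Iigp1 and Ifit1 are among the leading genes of a cluster named HSC and Ifi209 of a monocyte cluster.

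The HSC-like class had the highest level of 34 of the 46 genes in the control and 30 of the 46 in leukemic marrow, against 28.3% and 24.3% of all genes. Its interval lay apart from that of the next class for 10 of the 34 and 13 of the 30, so most of these orders did not differ beyond counting error. In the control, Iigp1 stood at 112 CPM in HSC-like cells and 13.5 in the Adgrl4-led class, and at 0.598 in neutrophil progenitor-like cells. Oasl2 stood at 68.3 CPM in control HSC-like cells, at 29.3 in the Adgrl4-led class, at 28.6 in lymphoid-primed-like cells and at 5.28 in monocyte progenitor-like cells. The neighbours in that order, the Adgrl4-led and lymphoid-primed-like classes, did not differ beyond counting error for Oasl2. In sum, the 46 genes made 2707 CPM of control HSC-like cells, 2082 of lymphoid-primed-like cells, 1960 of the Adgrl4-led class and 987 of neutrophil progenitor-like cells.

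Several genes had other leaders. Ifi209 led in monocyte progenitor-like cells, at 157 CPM in the control and 124 in leukemic marrow, against 39.2 in the next control class. Ifi27l2a led in lymphoid-primed-like cells, at 82.9 and 79.9 CPM. Isg20 led in erythroid progenitor-like cells, at 66.1 and 76.2 CPM, and was at 3.02 and 3.25 in monocyte progenitor-like cells. Bst2 varied least among these 4, from 134 to 260 CPM over the control classes. Irf1 was highest in HSC-like cells of the control (88.4 CPM) and in lymphoid-primed-like leukemic marrow cells (89.4 CPM).

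**Figure D2:**
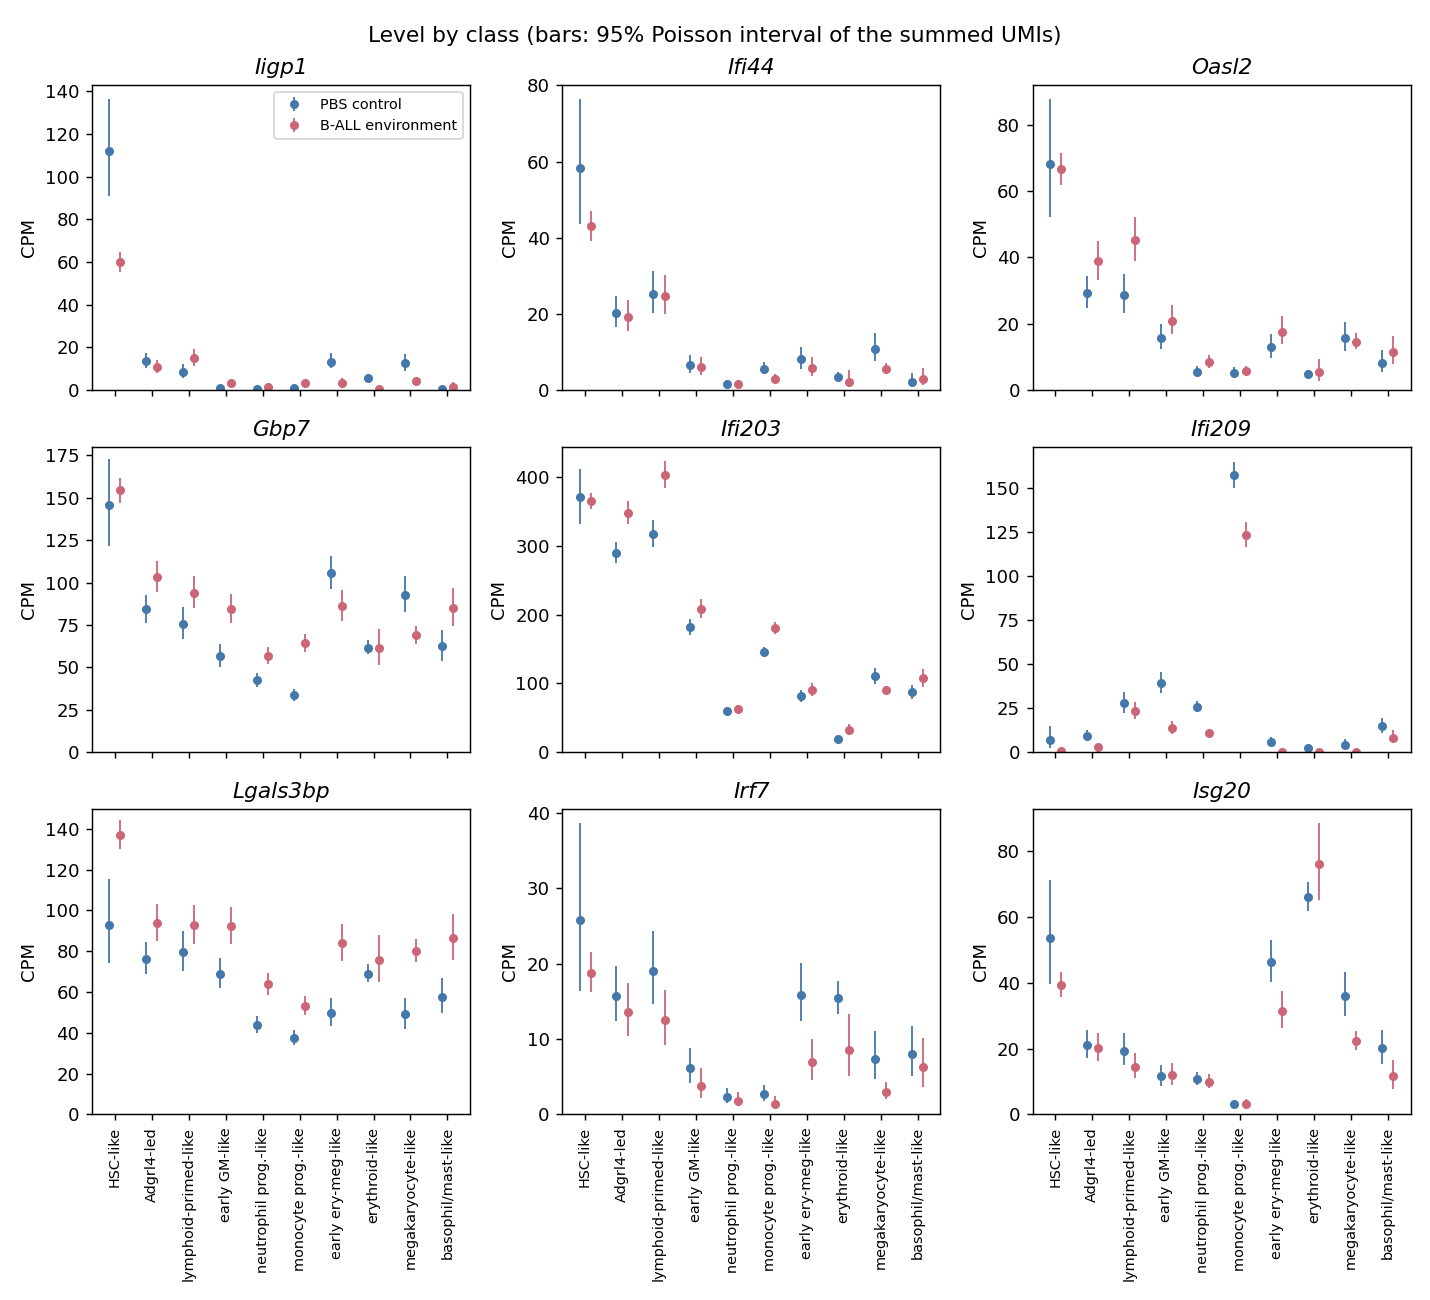
Level of 9 genes in CPM (y axis) by progenitor class (x axis), for the PBS control (blue) and the B-ALL environment (red), with bars for the 95% Poisson interval of the summed UMIs. Iigp1, Ifi44 and Oasl2 stand highest in HSC-like cells, Ifi209 in monocyte progenitor-like cells and Isg20 in erythroid progenitor-like cells, and Lgals3bp stands higher in the B-ALL environment in every class shown.

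With both groups weighted to the same class mix, 21 of the 46 genes were higher and 25 lower, against 50% of all genes in each direction, and the median log2 fold was -0.027. The weighting took the uncalled cells, 885 in the control and 1211 in leukemic marrow, as a class of their own. The mix of types within them was therefore not made equal. In them the summed GTPases had a log2 fold of 0.42 (0.35 to 0.50) and the core antiviral genes listed below one of 0.32 (0.20 to 0.45). Only Ifit1bl1 and Gm4951 remained more than 1.5-fold higher (7.83% of all genes were) and only Ifi209 more than 1.5-fold lower (7.70%). All 10 genes that had been more than 1.5-fold higher had a smaller log2 fold. That of Iigp1 went from 1.11 to -0.44, with 0.55 and 0.24 under the other ways to make classes, so its direction depended on the classes. Without the map cluster led by Igkc the last value was 0.085. That of Ifi44 went from 0.63 to -0.25, with 0.23 and 0.04, and -0.046 without that cluster. Oasl2 kept 0.35 (0.70 and 0.51), Gm4951 0.66 (1.84 and 1.53), Ifi203 0.23 (0.38 and 0.32) and Gbp7 0.26 (0.36 and 0.32). Lgals3bp kept 0.46 of 0.53 (0.51 and 0.47), and Ifi209 -0.70 of -0.94 (-0.79 and -0.65). With scores scaled within groups, 28 genes were higher and 18 lower (50.4% and 49.6% of all genes), 3 and 1 by more than 1.5-fold (9.85% and 7.60%), and the median was 0.12. With clusters of the map, 24 were higher and 22 lower (50.2% and 49.8%), 2 and 1 by more than 1.5-fold (9.02% and 7.5%), and the median was 0.036, or 0.015 without the cluster led by Igkc.

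**Figure D3:**
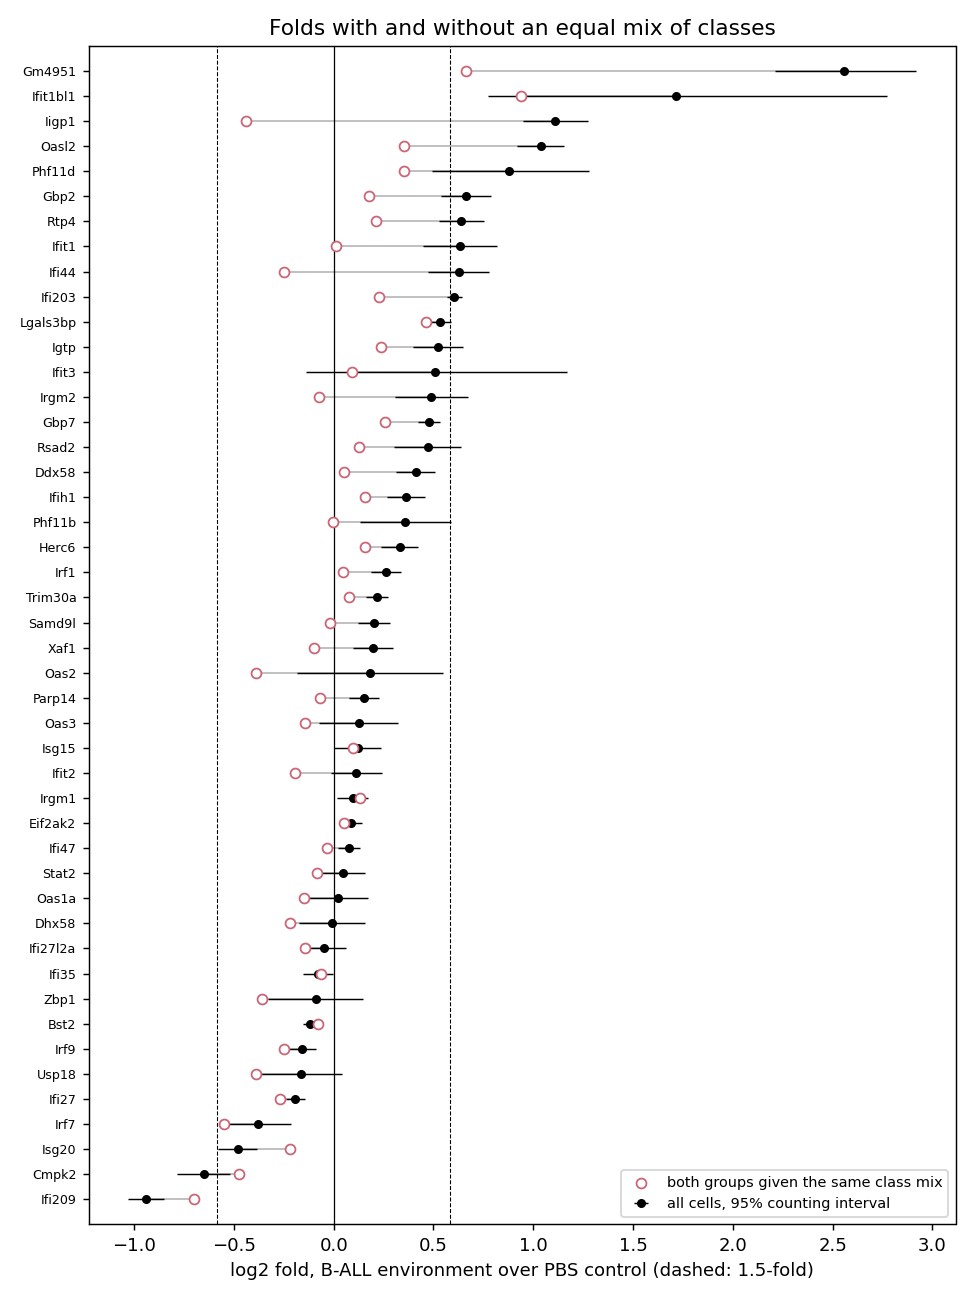
Log2 fold of each gene (x axis, B-ALL environment over PBS control) over all cells, with its 95% counting interval (black), and after both groups were given the same class mix (open red). Most red points lie nearer 0 than the black ones; Iigp1 and Ifi44 cross 0, while Lgals3bp stays to the right and Ifi209 to the left.

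Within HSC-like cells, 22 of the 44 genes that passed the filter on low counts were higher in leukemic marrow and 22 lower (51.6% and 48.4% of all genes tested), with a median log2 fold of 0.0036. There, 3 were more than 1.5-fold higher (13.7% of all genes tested) and 4 lower (10.4%). Of the 3, Ifit3 and Phf11d had 3 UMIs or fewer in the control, and the third, Ifi27l2a, changed sign under the other ways to make classes. The summed GTPases were lower in leukemic marrow, at 525.1 and 467.5 CPM (-0.17, -0.30 to -0.03). So were the summed core antiviral genes listed below, at 287.7 and 246.7 CPM (-0.22, -0.41 to -0.03). These sums were not made under the other ways. Lgals3bp stood at 92.9 CPM in the control and 137 in leukemic marrow, a log2 fold of 0.56 (0.24 to 0.90), and at 0.70 and 0.66 under the other ways to make classes. Ifi203 stood at 371 and 365 CPM, a log2 fold of -0.02 (-0.18 to 0.15). Oasl2 stood at 68.3 and 66.5 CPM, a log2 fold of -0.04 (-0.42 to 0.36), which was 0.57 and 0.47 under the other ways. Iigp1 stood at 112 and 60.1 CPM, a log2 fold of -0.90 (-1.20 to -0.58). That value rested on 29 control cells with a UMI of Iigp1, of which 1 cell held 28 of the 100 UMIs, and it was 0.41 and -0.02 under the other ways, or -0.32 with the map class without the cluster led by Igkc. Rsad2 (-0.65, but 0.17 with scores scaled within groups), Irf1 (-0.56) and Ifit2 (-0.77) were on the low side too, while Ifi27l2a was at 0.71 but at -0.49 and -0.90 under the other ways. Irf1 lay below -0.22 in no class with scores scaled within groups and below -0.097 in none with clusters of the map. Its value in HSC-like cells thus depended on the classes. All 4 transcription factors were on the low side in this class as first called, but under both other ways Irf9 and Stat2 were above 0, between 0.047 and 0.20.

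In lymphoid-primed-like cells 30 of 43 genes were higher and 13 lower, against 50.2% and 49.8% of all genes, with a median of 0.13. Beyond 1.5-fold, 5 were higher and 2 lower, against 8.22% and 6.31%. All 8 GTPases were higher there. Gbp2 stood at 13.1 CPM in the control and 22.2 in leukemic marrow, Igtp at 17.6 and 27.2, and Iigp1 at 8.65 and 14.98. Oasl2 stood at 28.6 and 45.2 CPM, a log2 fold of 0.66 (0.29 to 1.03), and Ifi203 at 318 and 403. Irf7 was lower in the same cells, at 19.1 and 12.5 CPM.

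In monocyte progenitor-like cells the summed GTPases stood higher and the summed core antiviral genes lower. There the 8 GTPases summed to 136 CPM in the control and 175 in leukemic marrow, a log2 fold of 0.37 (0.26 to 0.47). In the same cells 10 core antiviral genes (Ifit1, Ifit2, Ifit3, Ifit1bl1, Rsad2, Ifi44, Isg15, Usp18, Cmpk2 and Oasl2) summed to 50.8 and 38.3 CPM, a log2 fold of -0.41 (-0.61 to -0.21). Gbp7 carried most of the first difference, at 33.8 and 64.4 CPM, and without it the other 7 GTPases summed to 102.0 and 110.9 CPM. Gbp7 was also higher in early granulocyte-monocyte progenitor-like cells, at 56.7 and 84.2. The core sum was not distinguishable between groups in those cells (-0.17, -0.39 to 0.05) or in neutrophil progenitor-like cells (0.07, -0.14 to 0.28), where the GTPase sum had log2 folds of 0.29 (0.17 to 0.42) and 0.18 (0.08 to 0.28). In the neutrophil class the intervals of the 2 sums overlapped. In the monocyte class 25 genes were higher and 17 lower (49.6% and 50.4% of all genes), 3 and 6 of them by more than 1.5-fold (5.65% and 7.70%). In the early granulocyte-monocyte class 24 were higher and 17 lower (50% of all genes in each direction), 2 and 5 of them by more than 1.5-fold (7.10% and 6.25%). In the neutrophil class 22 were higher and 20 lower (49.7% and 50.3%), 4 and 4 of them by more than 1.5-fold (6.15% and 7.83%). The members' counts in these 3 classes were thus near an even split.

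In the classes of the erythroid and megakaryocyte branches more of the genes were lower than higher, but the sums differed. The log2 fold of the core sum was -0.45 in the early erythroid-megakaryocyte class and -0.29 in the megakaryocyte class, and that of the GTPase sum -0.33 and -0.30. In erythroid progenitor-like cells the core sum was higher, at 81.2 and 98.1 CPM (0.27, 0.06 to 0.48). The rise of Rsad2 alone, given in the next paragraph with the few cells behind it, was larger than that difference. The higher core sum thus rested on Rsad2. The GTPase sum was not distinguishable there (0.06, -0.10 to 0.21). In early erythroid-megakaryocyte progenitor-like cells 37 of 40 genes were lower and 3 higher, against 50.5% and 49.5% of all genes, with a median log2 fold of -0.42. Beyond 1.5-fold, 13 were lower and 1 higher, against 10.6% and 8.96%, with 1 of the 13, Ifi209, at 1 UMI in leukemic marrow. Irf7 stood at 15.9 CPM in the control and 6.94 in leukemic marrow, Irf9 had a log2 fold of -0.94, and Iigp1 stood at 13.4 and 3.47. Of the 3 genes that were higher, Lgals3bp stood at 49.8 and 84.0 CPM, and the other two were Oasl2 (0.45) and Ifi203 (0.15). In megakaryocyte progenitor-like cells 34 of 41 were lower and 7 higher (50.3% and 49.7% of all genes), 13 and 1 by more than 1.5-fold (11.6% and 9.0%), with a median of -0.32. Gbp2 stood at 24.6 and 11.5 CPM there. In erythroid progenitor-like cells 28 of 41 were lower and 13 higher (50.6% and 49.4%), 14 and 4 by more than 1.5-fold (13.8% and 8.49%), with a median of -0.30. Of those 14, Zbp1, Oas2, Oas3, Iigp1, Irgm2 and Ifi209 had 3 UMIs or fewer in leukemic marrow, which left 8, and with these 6 set at 3 UMIs the median was -0.25. With clusters of the map the medians of these 3 classes were -0.24, -0.026 and -0.26, so that of the megakaryocyte class rested on how cells were called. Median UMIs per cell also differed within them: 5760 and 9400.5 in the early class, 8133.5 and 13918 in the megakaryocyte class and 12065.5 and 19245.5 in the erythroid class. The part of depth in these values was not tested.

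In erythroid progenitor-like cells the 4 genes more than 1.5-fold higher were Rsad2, Irf1 (0.81), Ifi203 (0.76) and Isg15 (0.62). Rsad2 stood at 6.42 CPM in 940 control cells and 27.3 in 108 leukemic marrow cells, and Isg15 at 19.8 and 30.5. The 61 UMIs of Rsad2 in leukemic marrow came from 15 cells, and its log2 fold of 2.09 was 0.43 with clusters of the map, where Isg15 was at -0.26. In basophil and mast cell progenitor-like cells 16 of 37 genes were higher and 21 lower (50.3% and 49.7% of all genes, median -0.08), with none more than 1.5-fold higher, a size that 7.22% of all genes reached, and 5 more than 1.5-fold lower (6.29%). In the Adgrl4-led class 23 of 44 were higher and 21 lower (49.7% and 50.3%, median 0.01), with 2 more than 1.5-fold higher (8.17%) and 2 lower (6.36%).

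A few genes kept 1 direction across the 10 classes. Of 9780 genes with over 3 UMIs in every class, 7.88% were higher in all 10 and 8.22% lower. Among the genes read here with as many UMIs, only Lgals3bp was higher in all 10 and only Ifi27 and Irf7 were lower. That is not a larger part than among all genes. Lgals3bp was higher in 10 of 10 classes, with log2 folds from 0.13 to 0.76 and an interval above 0 in 8, in 10 of 10 with scores scaled within groups and in 9 of 10 with clusters of the map. Ifi27 was lower in 10 of 10 under all 3 ways, from -0.97 to -0.01 as first called, with an interval below 0 in 7. Irf7 was lower in 10 of 10, from -1.31 to -0.21, and in 8 and 9 of 10 under the other ways, but its interval lay below 0 in 4 of the 10. Ifi209 was lower in all 7 classes with over 3 UMIs in both groups, from -3.60 (HSC-like, 6 UMIs in each group) to -0.24, and in 7 of 7 under both other ways, with an interval below 0 in 6. Ifi209 also had 34 UMIs in control erythroid progenitor-like cells and 14 in control megakaryocyte progenitor-like cells but 0 in both classes of leukemic marrow. Against a limit of 3 UMIs per class these levels were at least 1.87-fold and at least 14.5-fold lower.

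Others kept it nearly so. Of all genes, 15.8% were lower in at least 9 classes, and 25% and 35% were higher in at least 8 and 7. The genes read here did not pass these shares. Ifih1 and Herc6 were higher in 8 of 10 classes, and Irgm1 and Trim30a in 7, with intervals above 0 in 0, 2, 2 and 5 classes. Usp18 was lower in 9 of 10 classes (10 of 10 and 8 of 9 under the other ways), Cmpk2 in 9 (8 and 9) and Irf9 in 9 (7 and 8). Their intervals lay below 0 in 1, 3 and 2 classes, so most of these directions were within counting error. Oasl2 and Ifi203 were each higher in 8 of 10 classes, Oasl2 in 10 and 9 under the other ways and Ifi203 in 9 and 9, with intervals above 0 in 3 classes for Oasl2 and 6 for Ifi203. Gbp7 and Gbp2 were each higher in 7 (8 and 8 under the other ways for Gbp7, 8 and 9 for Gbp2), with intervals above 0 in 6 classes for Gbp7 and 4 for Gbp2. Both were lower in the early erythroid-megakaryocyte and megakaryocyte classes as first called, and near level in 1 more, the erythroid class for Gbp7 (-0.0083) and the HSC-like class for Gbp2 (-0.17, -0.62 to 0.33). Iigp1 pointed up in 4 and down in 4 of the 8 classes with enough UMIs.

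**Figure D4:**
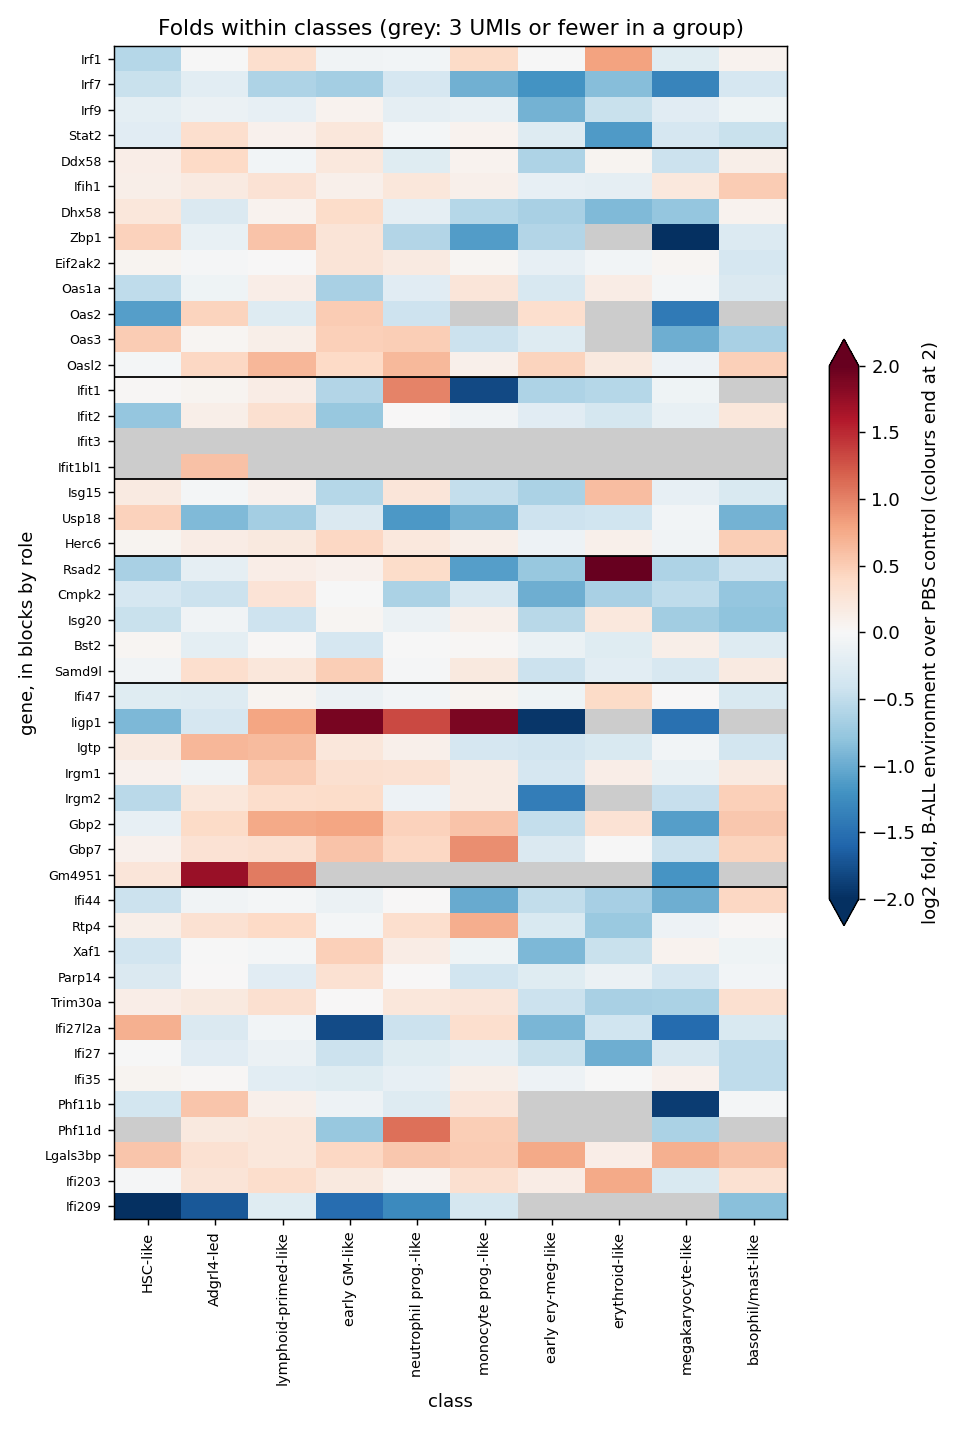
Log2 fold (colour, B-ALL environment over PBS control, red higher and blue lower) of the 46 genes in rows, in blocks by role, over the 10 classes in columns, with grey where a group had 3 UMIs or fewer. The Lgals3bp row is red throughout and the Irf7 and Ifi27 rows are blue, and most of the early ery-meg and megakaryocyte columns are blue.

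The response was also read cell by cell. To hold depth equal, each cell was thinned to 3000 UMIs, which left out 179 shallower leukemic marrow cells and no control cell. A cell was called responding when it kept UMIs of at least 3 of the 10 core genes. By this rule 54 of 5882 control cells responded, 0.918% (0.690 to 1.20%), and 108 of 5703 leukemic marrow cells, 1.89% (1.56 to 2.28%). The ratio of the shares was 2.06 (1.48 to 2.92), and without thinning the shares were 5.07% and 10.2%. At 5 or more core genes the shares were 0.238% and 0.263%, a ratio of 1.10 (0.497 to 2.47), so the cells with the most core genes were not distinguishable in number. Free RNA can give such UMIs in any cell, and in control neutrophil progenitor-like cells 0 of 600 met the rule, which allows a share of up to 0.5% (3 cells of 600, with an exact upper bound of 0.613%). Without thinning 15 of the 600 met it (2.5%). These cells had a median of 16145 UMIs, against 5842 in control HSC-like cells, so they set no limit on free RNA in shallower classes. The part of free RNA was not tested.

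In HSC-like cells 4 of 134 control cells responded (2.98%, 0.819 to 7.47%) and 52 of 1185 leukemic marrow cells (4.39%, 3.29 to 5.71%). Lymphoid-primed-like cells had 1.70% and 3.23%, and the Adgrl4-led class 2.19% and 2.27%. In early erythroid-megakaryocyte progenitor-like cells the shares were 1.68% and 0.815%. In each of these 4 classes the intervals of the groups overlapped, and in the control that of HSC-like cells covered the other 3 shares. Erythroid progenitor-like cells had 4 of 940 in the control and 3 of 106 in leukemic marrow (0.426% and 2.83%), and these intervals overlapped too. Without thinning the control share was 7.46% in HSC-like, 10.5% in lymphoid-primed-like and 8.01% in Adgrl4-led cells, so no order of classes is read from it. HSC-like cells made up 7.41% of the responding cells in the control and 48.1% in leukemic marrow, but also 2.28% and 20.8% of all cells. With both groups given the same class mix the ratio of shares was 1.46, and 1.58 and 1.34 under the other ways to make classes.

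**Figure D5:**
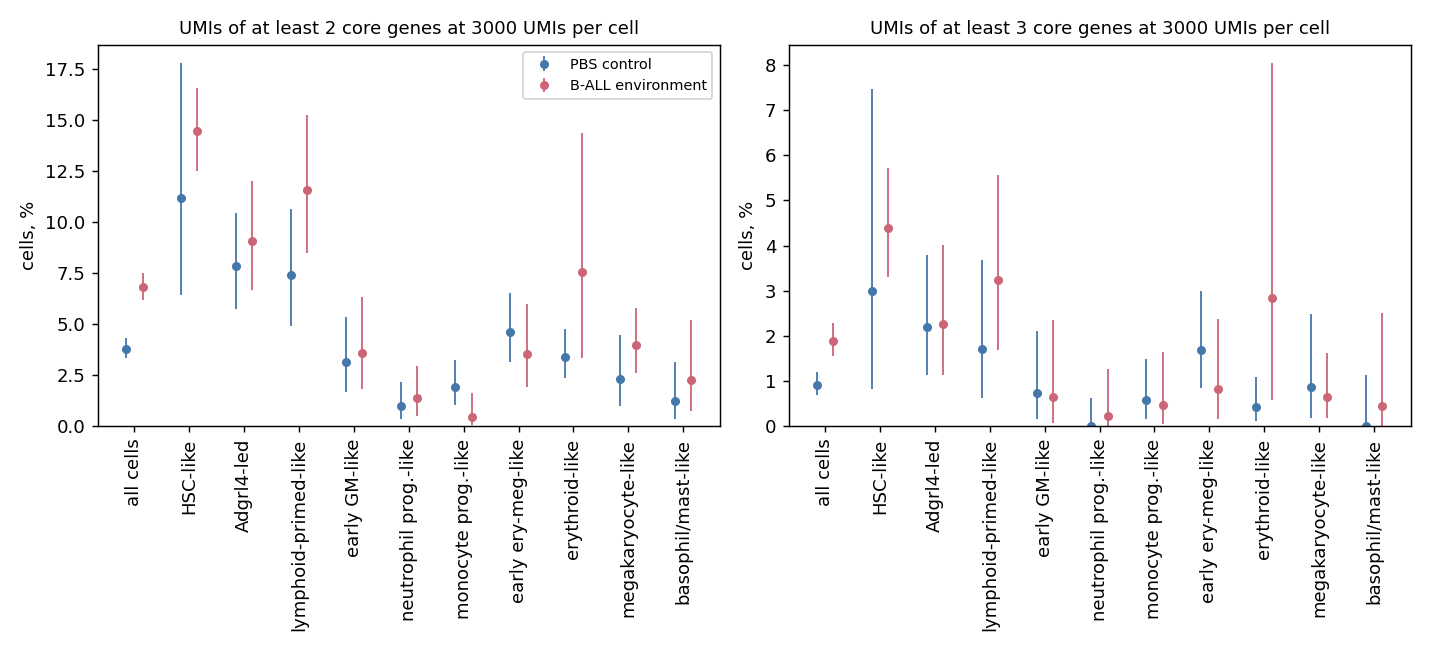
Share of cells (y axis, %) with UMIs of at least 2 (left) or at least 3 (right) core genes after thinning to 3000 UMIs per cell, over all cells and by class (x axis), in the PBS control (blue) and the B-ALL environment (red), with exact 95% binomial intervals. The share over all cells is 0.918% and 1.89% on the right, and within the classes named in the text the intervals of the groups overlap.

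Taken as a sum, the 36 genes outside the core were also higher in the called cells. Their thinned sum was 6574 CPM in responding control cells and 1256 in control cells with no core UMI, a ratio of 5.23 (4.92 to 5.57). In leukemic marrow it was 4809 and 1475 CPM, a ratio of 3.26 (3.09 to 3.43). These ratios are not matched for class, and the called cells differed between groups in class, as given above, and in strength, with 5 or more core genes in 14 of 54 and 15 of 108. Iigp1 stood at 482 against 3.56 CPM in the control (ratio 135) and 213 against 11.8 in leukemic marrow (ratio 18.1). Irf7 had ratios of 25.0 and 13.6, Rtp4 of 21.3 and 10.3, and Zbp1 of 25.9 and 12.9. Ifi27 barely followed the call, with ratios of 1.24 (0.772 to 1.88) and 1.28 (0.919 to 1.74). Ifi209 had a ratio of 2.43 (1.28 to 4.19) in the control but 1.12 (0.406 to 2.48) in leukemic marrow, where the called cells held 6 UMIs.

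The share of UMIs held by the 1% of cells with most of them was lower in leukemic marrow for 36 of the 46 genes, higher for 7 and equal for 3. The same count over all genes was not made, so it is not read as a trait of these genes. The share also depends on how many cells hold a gene, and is 100% for any gene found in under 1% of cells. Gm4951, found in 0.748% of control cells and 6.36% of leukemic marrow cells, was at 100% and 34.2%. The 1% of control cells with most Iigp1 UMIs held 74.0% of them, and the same share of leukemic marrow cells held 26.9%. For Ifit1 these values were 62.4% and 43.96%, for Ifi44 40.1% and 21.1%, and for Rsad2 48.2% and 38.9%. Ifi209 went the other way, at 17.9% and 31.4%. Genes present in many cells hardly differed, as with Gbp7 at 8.59% and 6.24%. After thinning, a UMI of Iigp1 was kept in 1.44% of control cells and 4.96% of leukemic marrow cells.

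The rest of the pathway was read from lists of its other genes. None of the 10 interferon genes listed was in the matrix. Of 7 receptor and kinase genes, 2 were higher and 5 lower over all cells (50.3% and 49.7% of all genes), and as many with the same class mix. Ifngr1, the ligand-binding chain of the interferon gamma receptor, stood at 283 CPM in the control and 139 in leukemic marrow. Its log2 fold was -1.02 (-1.06 to -0.99) over all cells, -0.65 with the same class mix and -0.45 in HSC-like cells. Jak2, Ifnar2 and Tyk2 were at -0.32, -0.18 and -0.17. Among the signal factors, Stat3 was at 0.51, Irf8 at -0.47 and Irf3 at -0.22, or 0.26, -0.26 and -0.19 with the same class mix.

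Of 10 upstream sensing genes 7 were higher and 3 lower over all cells (50.3% and 49.7% of all genes), but 5 and 5 with the same class mix. Myd88, the adaptor of most Toll-like receptors, stood at 18.8 CPM in the control and 34.0 in leukemic marrow, and Tlr3, which fell under the level asked for naming, had 15 and 54 UMIs. With the same class mix the log2 fold of Myd88 was 0.73 and that of Tlr3 was -0.029. Tmem173 (STING), Mavs and Cgas were at 0.20, -0.19 and 0.13. Of 7 feedback inhibitors 5 were higher and 2 lower over all cells, and 4 and 3 with the same class mix (50% of all genes each way). Socs1, which blocks the receptor's kinases, stood at 4.80 and 25.7 CPM, a log2 fold of 2.42 (2.25 to 2.59), and 1.85 with the same class mix. Socs3 stood at 2.60 and 19.9 CPM, a log2 fold of 2.94 (2.71 to 3.17). Irf2bp2 and Ptpn11 were at -0.18 and 0.11.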

How the data were processed

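Host progenitors were profiled with the Chromium Single Cell 3′ kit v3, per the labels' protocols. The submitters' processing notes name Cell Ranger 4, Seurat 4.0.1 and the build mm10. Each value of the authors' deposited matrix is an unnormalized UMI count of a gene in a cell, and the sums matched the authors' per-cell totals exactly in 100% of cells. The authors' cell table gives a group prefix and UMAP coordinates, used as deposited scores. How cells and genes were filtered and doublets treated is not given in the sources used here. The members and lists were chosen with earlier results of these data known.

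The cells carry no sample, so the edgeR test planned for that case could not be run. The prefix "tm" was taken to mean the tumor environment. UMIs were summed per group and class and scaled to CPM by TMM (edgeR 4.0.16, R 4.3.3), and in classes genes were filtered with filterByExpr. Ratios have exact conditional Poisson intervals and shares exact Clopper-Pearson intervals (95%, scipy 1.17.1), which cover counting error only. No log2 fold is given in a class where a group had 3 UMIs or fewer.

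Cells were called from mean scaled scores of marker lists (10000 counts per cell), with a top score of at least 0.5 and a gap of at least 0.25 to the next. Ly6a, Irf8, Fcgr1 and Ly6c2 were left out of the lists because interferon raises them. Alternatives scaled scores within each group, or named Leiden clusters of the deposited map (scanpy 1.11.5, 30 neighbours, resolution 0.3) by the same markers. A further alternative, chosen after seeing the data, left a map cluster led by Igkc and globin genes unnamed. Counts of genes past 1.5-fold take all genes that passed the filter. No doublet caller was run, and an alternative left out the deepest 5% of cells. Thinning used seed 1. Full values were given for the 10 highest and 10 lowest folds with a mean of at least 10 CPM (31 genes), for the most abundant genes, and for the 3 highest and lowest per class, with others as ranges. Genes named outside that rule, such as Gm4951, were chosen after their values were seen. Exon overlaps come from the GENCODE annotation of GRCm38. They also touch Irf9 (Rnf31), Ifi47 (Olfr56), Parp14 (Gm49730) and Herc6 (Gm45193) on the same strand and Irf7 (Phrf1) on the other, so those counts are uncertain too. Only the counting intervals of the folds and the thinning were run on simulated counts, drawn without clumping of UMIs in cells. The calling of cells, the scaling, the class weighting and the responding rule were not simulated. A further pathway gene is not reported here.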

Additional observations from a re-analysis of the deposited data

How the results depend on the processing

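No paired analysis was possible because the cells carry no replicate number, and leaving out each replicate was not run for the same reason. Over all cells, the 10 genes more than 1.5-fold higher and 2 lower numbered the same with total UMIs or DESeq2 size factors, without the filter, without shallow cells, and, chosen after seeing the data, without shared barcodes or cells rich in globin or Igkc. Without the deepest 5% of cells there were 12 and 1. The median log2 fold of 0.20 was 0.24 with total UMIs, 0.26 without the deepest cells and -0.027 with the same class mix, where 2 genes were higher and 1 lower. With the same class mix and the ways to make classes added after seeing the data, scores scaled within groups gave 3, 1 and 0.12, and map clusters 2, 1 and 0.036. Without the map cluster led by Igkc and globin genes, also chosen after seeing the data, the last were 2, 1 and 0.015, the HSC-like median was -0.032 and its responding share in leukemic marrow 6.18%.

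The responding shares (control, then B-ALL environment) were 3.79% and 6.80% at 2 core genes, 0.238% and 0.263% at 5 (ratio 1.10), 2.33% and 4.24% at 6000 UMIs, and 5.07% and 10.2% without thinning. The ratio was 1.46 with the same class mix and 1.34 with that of map clusters. Map clusters gave shares of 0.813% and 1.10% in the Adgrl4-led class, 0.560% in control lymphoid-primed-like cells, and 0 and 0 in early granulocyte-monocyte progenitor-like cells. Scaled within groups, basophil and mast cell progenitor-like cells of leukemic marrow were at 0.

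Medians by class with scores scaled within groups were 0.17 (HSC-like), 0.22 (Adgrl4-led), 0.25 (lymphoid-primed-like), 0.24 (early granulocyte-monocyte), 0.080 (neutrophil), -0.14 (erythroid), -0.25 (megakaryocyte) and -0.15 (basophil and mast cell). With map clusters they were 0.28 (Adgrl4-led), 0.18 (lymphoid-primed-like), -0.024 (neutrophil), -0.0085 (monocyte), -0.24 (early erythroid-megakaryocyte), -0.026 (megakaryocyte) and -0.22 (basophil and mast cell). The neutrophil, monocyte and, without that cluster, HSC-like medians thus turned from just above 0 to just below it, and the cause was not tested. Depth limits the genes under about 10 CPM, the 134 control HSC-like cells and the 108 erythroid progenitor-like cells of leukemic marrow.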

Other observations

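Genes outside the list that interferon is also known to raise, chosen with earlier results of these data known, were read in the same classes. Ifitm3, which blocks viral entry, stood at 392 CPM in the control and 1025 in leukemic marrow over all cells. It was higher in 10 of 10 classes, with log2 folds from 0.59 in early granulocyte-monocyte progenitor-like and megakaryocyte progenitor-like cells to 1.38 in erythroid progenitor-like cells. Ly6a, which encodes the stem cell antigen SCA-1, was higher in 10 of 10 classes too, at 97.4 and 174.8 CPM in HSC-like cells and 31.3 and 113.8 in lymphoid-primed-like cells. B2m, the light chain of MHC class I, had smaller log2 folds, from 0.10 to 0.43, all above 0.

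Irf8, a factor of the monocyte and dendritic lineages, was lower in the Adgrl4-led class, at 97.8 and 39.0 CPM, but close to level in monocyte progenitor-like cells, at 722 and 770. In responding cells Ly6a was higher than in cells with no core UMI by a ratio of 17.7 in the control and 4.41 in leukemic marrow. Socs1 followed the call in the control, with a ratio of 7.77 (2.75 to 17.8), but not beyond counting error in leukemic marrow, at 1.24 (0.654 to 2.14).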
